A study of Mus musculus with 6 samples.

Results

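The genes described here are 10 members of the insulin-like growth factor (IGF) system in the mouse prostate, namely the ligands Igf1 and Igf2, the receptors Igf1r and Igf2r, and the binding proteins Igfbp2, Igfbp3, Igfbp4, Igfbp5, Igfbp6 and Igfbp7. They were taken by gene symbol from a table of 34745 genes, in which each symbol named 1 gene, and all 10 were among the 15580 genes with enough counts to be tested. RNA was sequenced from prostate tissue of 6 male C57BL/6 mice, aged 6 to 8 weeks at the start, in the study of a model of benign prostatic hyperplasia. In the T + E2 group (3 mice), a slow-release pellet of testosterone and estradiol lay under the skin of the back for 12 weeks and was renewed every month. In the CON group (3 mice), the skin was cut and closed and no pellet was placed. The labels name neither a castration nor a group given a single hormone, so the effects of testosterone and estradiol cannot be told apart.

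IGF-I and IGF-II are secreted peptides that promote growth and survival through the IGF-I receptor, a tyrosine kinase that acts on the PI3K and MAPK cascades. The IGF-II receptor carries no kinase and takes IGF-II up for breakdown. Binding proteins hold the ligands outside the cell, which can prolong their life, keep them from the receptor or deliver them to it, and proteases that cut the binding proteins set the ligands free. In the prostate the system is known for signals that pass from the stroma to the epithelium.

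Reads counted on genes totalled 14816146 to 16555549 per mouse, and a gene with 3 counts, taken as the detection limit, stood at 0.181 to 0.202 counts per 1000000 (CPM). Values of single genes are given as CPM after TMM scaling, which corrects for differences in library composition, with the SD over 3 mice. A log2 fold change is that of the T + E2 group over the CON group, from edgeR's quasi-likelihood test, and p-values were adjusted over all 15580 genes by the Benjamini-Hochberg method. A gene passed the test at an adjusted p under 0.05 and was a DEG, by the rule of the study, if its absolute log2 fold change was also over 1. The labelled tissue was checked with 7 markers of luminal prostate epithelium, among them Hoxb13, whose summed level was 3664 to 4001 CPM in the 6 mice. CON replicate 2 stood apart in genes of the seminal vesicle (5 genes, summed level 10255 CPM, against 0.628 to 641 CPM in the other mice), of adipocytes (455 against 37.5 to 119 CPM) and of skeletal muscle (249 against 67.5 to 181 CPM). The 641 CPM were those of T + E2 replicate 2, and the remaining mice had 0.628 to 3.84 CPM. In T + E2 replicate 2 the seminal vesicle gene Svs2 (483 CPM) was above its level in CON replicate 2 (221 CPM). Log2 fold changes of the 10 genes without CON replicate 2 are therefore given beside the results, and for some genes those without T + E2 replicate 2.

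Of the 10 genes, 3 were higher in the T + E2 group (Igf1, Igf1r and Igfbp2), 3 were lower (Igfbp3, Igfbp5 and Igfbp7) and 4 did not pass the test (Igf2, Igf2r, Igfbp4 and Igfbp6). Among all tested genes, 10.4% were called higher and 9.25% lower. Igf1 and Igfbp2 were upregulated DEGs and Igfbp3 was a downregulated DEG, where 4.27% of all tested genes were upregulated and 3.38% downregulated DEGs. For 8 of the 10 genes every T + E2 value lay on one side of every CON value, which held for 40.7% of all tested genes, and the exceptions were Igfbp4 and Igfbp6. The median log2 fold change of the 10 genes was 0.183 and its median absolute size 0.477, beside -0.0021 and 0.261 over all tested genes.

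**Figure D1:**
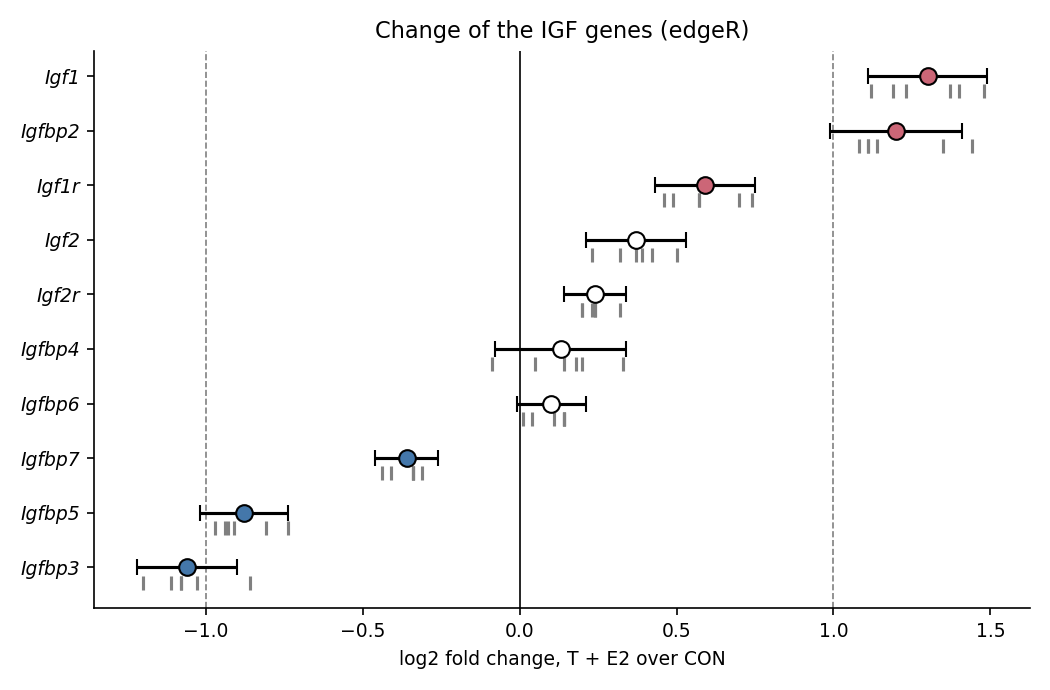
Log2 fold change of each gene in the T + E2 group over the CON group from edgeR's quasi-likelihood test (horizontal axis, points with bars of 1 standard error, n = 3 mice per group), with filled points for genes that passed an adjusted p of 0.05. Igf1 (1.30) and Igfbp2 (1.20) lie farthest to the right, and Igfbp3 (-1.06) and Igfbp5 (-0.88) farthest to the left.

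Among the ligands, Igf1 rose and Igf2 did not pass the test. Igf1, which encodes the growth factor made in the liver and in local stroma under the control of growth hormone, lies on chromosome 10 (build GRCm38, chr10:87858265-87937042, plus strand). Its level was 65.1, 47.4 and 44.6 CPM in CON replicates 1, 2 and 3 and 117, 159 and 110.3 CPM in T + E2 replicates 1, 2 and 3. Every T + E2 mouse lay above every CON mouse, and T + E2 replicate 2 was the highest of the 6. From 52.4 ± 11.1 to 129 ± 26.7 CPM (mean ± SD, n = 3 per group), Igf1 rose 2.46-fold (log2 fold change 1.30, standard error 0.19, edgeR adjusted p = 0.00277). Without CON replicate 2 the log2 fold change was 1.23 (edgeR adjusted p = 0.011), and without T + E2 replicate 2 it was 1.12 (edgeR adjusted p = 0.00891).

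Igf2 encodes the ligand that dominates growth before birth and is imprinted, with expression from the paternal copy. It lies on chromosome 7 (chr7:142650766-142666816, minus strand). The CON mice had 10.7, 12.3 and 8.35 CPM and the T + E2 mice 12.5, 14.4 and 13.5 CPM. The groups did not overlap, but the lowest T + E2 value (12.5) and the highest CON value (12.3) were almost the same, and the log2 fold change of 0.37 (standard error 0.16) did not pass edgeR's test (adjusted p = 0.153). Without CON replicate 2 it was 0.50 (edgeR adjusted p = 0.0957). H19, the noncoding RNA of the same imprinted locus, had 13 to 23 counts in CON mice and 30 to 42 in T + E2 mice (log2 fold change 0.90, edgeR adjusted p = 0.077). The antisense genes Igf1os and Igf2os overlap the ligand genes and had 0 to 2 and 1 to 5 counts.

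Of the receptors, Igf1r rose and Igf2r did not pass the test. Igf1r, the kinase receptor, lies on chromosome 7 (chr7:67952859-68226780, plus strand). It stood at 44.7, 36.2 and 30.7 CPM in CON mice and at 57.3, 46.9 and 63.3 CPM in T + E2 mice. The groups did not overlap, although T + E2 replicate 2 (46.9) was close to CON replicate 1 (44.7). Igf1r rose 1.5-fold, from 37.2 ± 7.02 to 55.8 ± 8.29 CPM (mean ± SD, n = 3 per group), and its log2 fold change was 0.59 (standard error 0.16, edgeR adjusted p = 0.0392). This call was lost in several fits that left out a mouse. Without CON replicate 2 the edgeR adjusted p was 0.1 (log2 fold change 0.57). It was also above 0.05 without CON replicate 3 (0.112), T + E2 replicate 1 (0.0951) or T + E2 replicate 3 (0.103). The log2 fold changes of these fits were 0.46, 0.57 and 0.49. Fits with a mouse left out also called fewer genes among all those tested. The end of Igf1r in the table lies 6888 bases before that in release M21 of the GENCODE annotation, so reads from this stretch were not counted on the gene.

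Igf2r, the receptor that clears IGF-II and also sorts lysosomal enzymes by their mannose 6-phosphate, lies on chromosome 17 (chr17:12682406-12769664, minus strand). The 3 CON mice had 212, 208 and 211 CPM, and the T + E2 mice had 261, 221 and 263 CPM. All 3 T + E2 values were above the CON values, and the log2 fold change of 0.24 (standard error 0.1) did not pass edgeR's test (adjusted p = 0.123), nor did that of 0.23 without CON replicate 2 (adjusted p = 0.264). Airn, the noncoding RNA that starts within Igf2r and runs on the opposite strand, was lower in the T + E2 group (9.83 ± 0.811 against 14.6 ± 0.372 CPM, log2 fold change -0.57, standard error 0.12, edgeR adjusted p = 0.015). Whether reads were counted by strand is not given in the sources used here, so reads of Airn and Igf2r over their shared stretch cannot be told apart. The insulin receptor Insr, which can form hybrid receptors with Igf1r, had a log2 fold change of 0.22 (edgeR adjusted p = 0.202).

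**Figure D2:**
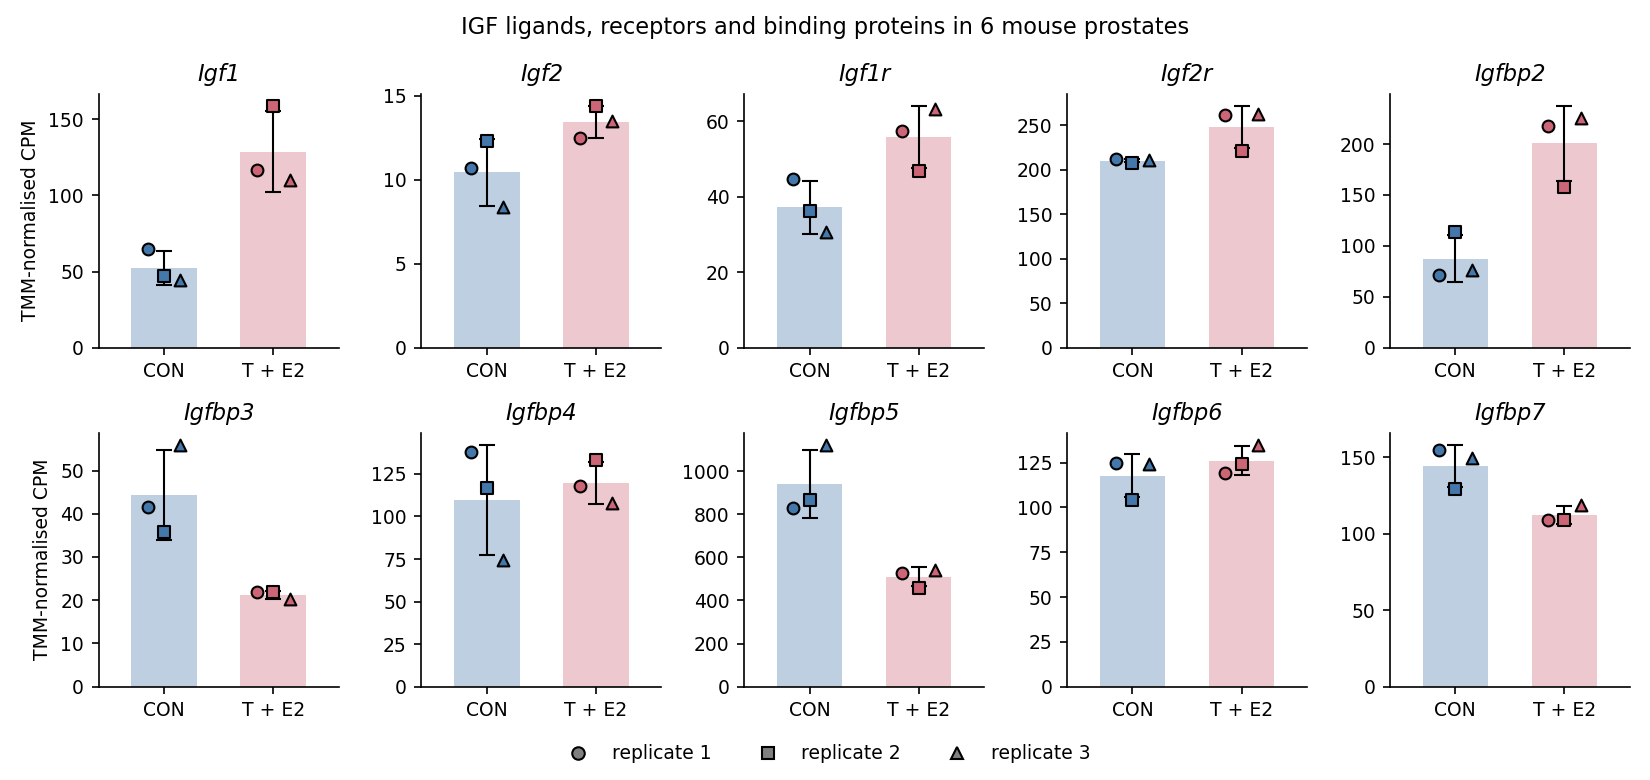
TMM-normalised level of each of the 10 genes in every mouse (vertical axis, CPM; 1 point per mouse, bars at the group mean with 1 SD, n = 3 per group). The CON and T + E2 points are apart for 8 genes and overlap for Igfbp4 and Igfbp6.

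The binding proteins moved in both directions, with 1 of 6 higher, 3 lower and 2 not passing the test. Igfbp2, a binding protein with an RGD motif through which it can also bind integrins, was the one that rose. It lies on chromosome 1 (chr1:72824503-72852474, plus strand). The CON mice had 71.6, 114 and 76.5 CPM and the T + E2 mice 218, 158 and 226 CPM. The groups were apart, with the highest CON value in replicate 2 and the lowest T + E2 value in replicate 2. Igfbp2 rose 2.3-fold, from 87.3 ± 23 to 201 ± 37.2 CPM (mean ± SD, n = 3 per group; log2 fold change 1.20, standard error 0.21, edgeR adjusted p = 0.00563). Without CON replicate 2 the log2 fold change was 1.44 (edgeR adjusted p = 0.00245), and without T + E2 replicate 2 it was 1.35 (edgeR adjusted p = 0.00815).

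Igfbp3 encodes the main carrier of the IGFs in blood, which forms a complex with the acid-labile subunit. It lies on chromosome 11 (chr11:7206086-7213923, minus strand). Its level was 41.5, 35.8 and 56 CPM in CON mice and 21.8, 21.8 and 20.2 CPM in T + E2 mice. The T + E2 mice lay close together and all were below the CON mice. Igfbp3 fell to 47.8% of its CON level (44.4 ± 10.4 against 21.2 ± 0.907 CPM, log2 fold change -1.06, standard error 0.16, edgeR adjusted p = 0.00331). Without CON replicate 3, the highest mouse, the log2 fold change was -0.86 and Igfbp3 was no DEG (edgeR adjusted p = 0.00497), and without CON replicate 2 it was -1.20 (edgeR adjusted p = 0.00234).

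Igfbp5, a binding protein that also attaches to extracellular matrix, lies on chromosome 1 (chr1:72857932-72874884, minus strand) and had more counts than any of the other 9 genes. The CON mice had 831, 868 and 1123 CPM, and the T + E2 mice had 526, 459.5 and 543 CPM. No T + E2 mouse reached the lowest CON mouse. Igfbp5 fell to 54.2% of its CON level (941 ± 159 against 509.5 ± 44.1 CPM, mean ± SD, n = 3 per group), and its log2 fold change was -0.88 (standard error 0.14, edgeR adjusted p = 0.00384), short of the threshold for a DEG. Without CON replicate 2 the log2 fold change was -0.94 (edgeR adjusted p = 0.00794).

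Igfbp7, which binds IGFs weakly and is abundant in vessel walls and stroma, lies on chromosome 5 (chr5:77349240-77408041, minus strand). It stood at 155, 129 and 149.7 CPM in CON mice and at 109, 109 and 119 CPM in T + E2 mice. Its end overlaps that of Polr2b on the other strand. The groups were apart, and Igfbp7 fell from 145 ± 13.5 to 113 ± 5.94 CPM (log2 fold change -0.36, standard error 0.1, edgeR adjusted p = 0.0387). The call was kept without CON replicate 2 (log2 fold change -0.44, edgeR adjusted p = 0.0385) and was lost without any of the other 5 mice (adjusted p of 0.107 without CON replicate 1, 0.115 without CON replicate 3, and 0.129, 0.0948 and 0.0504 without T + E2 replicates 1, 2 and 3).

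Igfbp4 and Igfbp6 overlapped between the groups. Igfbp4, a binding protein that inhibits IGF action until the protease PAPP-A cuts it (chr11:99041244-99054392, plus strand), had 138, 117 and 74.2 CPM in CON mice and 118, 133 and 108 CPM in T + E2 mice. Its CON values spread more than those of the other group, and its log2 fold change was 0.13 (standard error 0.21, edgeR adjusted p = 0.703) and became -0.09 without CON replicate 3 and 0.18 without CON replicate 2. Igfbp6, which prefers IGF-II (chr15:102144362-102149511, plus strand), had 125, 104 and 124 CPM in CON mice and 119, 124 and 135 CPM in T + E2 mice, and its log2 fold change was 0.10 (standard error 0.11, edgeR adjusted p = 0.549), or 0.01 without CON replicate 2 (edgeR adjusted p = 0.95). Igfbp1, the binding protein made mainly by the liver, had 0 counts in all 6 mice, although its gene lies only 3539 bases from Igfbp3 on chromosome 11.

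Igfbp2 and Igfbp5 are neighbours whose ends face each other, 5457 bases apart on chromosome 1, and they moved in opposite directions. For every 100 counts of Igfbp5, Igfbp2 had 8.62, 13.1 and 6.81 counts in CON mice and 41.3, 34.4 and 41.7 counts in T + E2 mice. This ratio within a mouse does not depend on library scaling, and the lowest T + E2 mouse was above the highest CON mouse.

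To compare levels between genes, the FPKM of the authors was used, which divides the counts by the length of the gene, in units of 1000 bases, and by the counts of the library, in units of 1000000. In the CON group Igfbp6 (95.6 to 115 FPKM) and Igfbp5 (85.3 to 112) were the highest and overlapped, followed by Igfbp7 (67.7 to 80.6) and Igfbp2 (27.1 to 43.3), which overlapped with no neighbour. Igf2r (21.5 to 22.2 FPKM), Igfbp4 (12.1 to 23), Igfbp3 (9.7 to 14.7) and Igf1r (6.8 to 10.1) came next, each overlapping with the following one. Igf1 (3.37 to 5.05 FPKM) and Igf2 (0.631 to 0.958) were the lowest and were apart from each other and from Igf1r. In the T + E2 group Igfbp6 (102 to 123 FPKM) stood alone at the top, and Igfbp2 (58.2 to 85) came second and overlapped with Igfbp7 (53.2 to 61.6), which overlapped with Igfbp5 (45.9 to 55.3). Below them were Igf2r (22.5 to 27.3 FPKM), Igfbp4 (17.9 to 21.7), the overlapping pair of Igf1r (10.4 to 14.3) and Igf1 (8.49 to 12), then Igfbp3 (5.41 to 5.72) and Igf2 (0.909 to 1.09).

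The order depends on gene length. The length behind the deposited FPKM was 1112 bases for Igfbp6, the same as its annotated exons, but 13154 bases for Igf2, whose exons cover 5723 bases in GENCODE M21, and 4489 bases for Igf1r, whose exons cover 16791. With the length of the annotated exons, an alternative chosen after the data were seen, Igfbp5 (141 to 186 on the same scale) was apart from and above Igfbp7 (109.9 to 131) and Igfbp6 (95.6 to 115) in the CON group, and Igf1r (1.82 to 2.71) fell below Igf1 (4.47 to 6.7). The annotated exons of Igf1r reach 6888 bases past its end in the table, where reads were not counted. Its level with this length is therefore too low, and its place below Igf1 is uncertain. In the T + E2 group Igfbp6 (102 to 123) was not alone at the top with exon lengths and overlapped with Igfbp2 (84.9 to 124). Fold changes between the groups do not depend on this length.

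On the deposited FPKM scale, the ligands summed to 4.85 ± 0.954 in CON mice and 10.7 ± 2.12 in T + E2 mice, whereas the 6 binding proteins summed to 340.5 ± 14.2 and 318 ± 27.1 (SD, n = 3 in each). The binding protein sum was thus 58.1, 69.8 and 88.5 times the ligand sum in CON mice and 32.7, 22.6 and 36.5 times in T + E2 mice, with no overlap. With exon lengths the ratio was 67.5 ± 14.8 in CON mice and 29.1 ± 6.71 in T + E2 mice. Igf1 made up 79.5 to 85.9% of the ligand sum in CON mice and 89.1 to 91.7% in T + E2 mice. These sums concern transcripts, not proteins, and are described without a test. The ligand sum of the T + E2 group was 2.2 times that of the CON group, or 2.16 times without CON replicate 2, and the binding proteins per ligand were 0.425 times, or 0.418 times without it.

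Within the binding protein sum, the share of Igfbp2 was 7.93, 13.3 and 7.97% in CON mice and 25.1, 19.6 and 24.4% in T + E2 mice. The share of Igfbp5 was 24.9, 27.6 and 31.7% against 16.5, 15.5 and 15.9%, and that of Igfbp3 was 2.98 to 4.15% against 1.55 to 1.92%. In all 3 cases the groups were apart. The T + E2 share was 2.37 times the CON share for Igfbp2, or 2.9 times without CON replicate 2, and 0.568 times for Igfbp5, or 0.563 times without that mouse. The share of Igfbp7 went from 21.9 ± 1.46 to 17.9 ± 0.653%, that of Igfbp6 from 31.4 ± 2.1 to 35.3 ± 1.93%, and that of Igfbp4 from 5.39 ± 1.75 to 6.15 ± 1.08%. With exon lengths Igfbp2 held 10.2 ± 3.18 and 24.9 ± 3.1% and Igfbp5 held 33.3 ± 3.85 and 19.5 ± 0.492% in the CON and T + E2 groups.

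**Figure D3:**
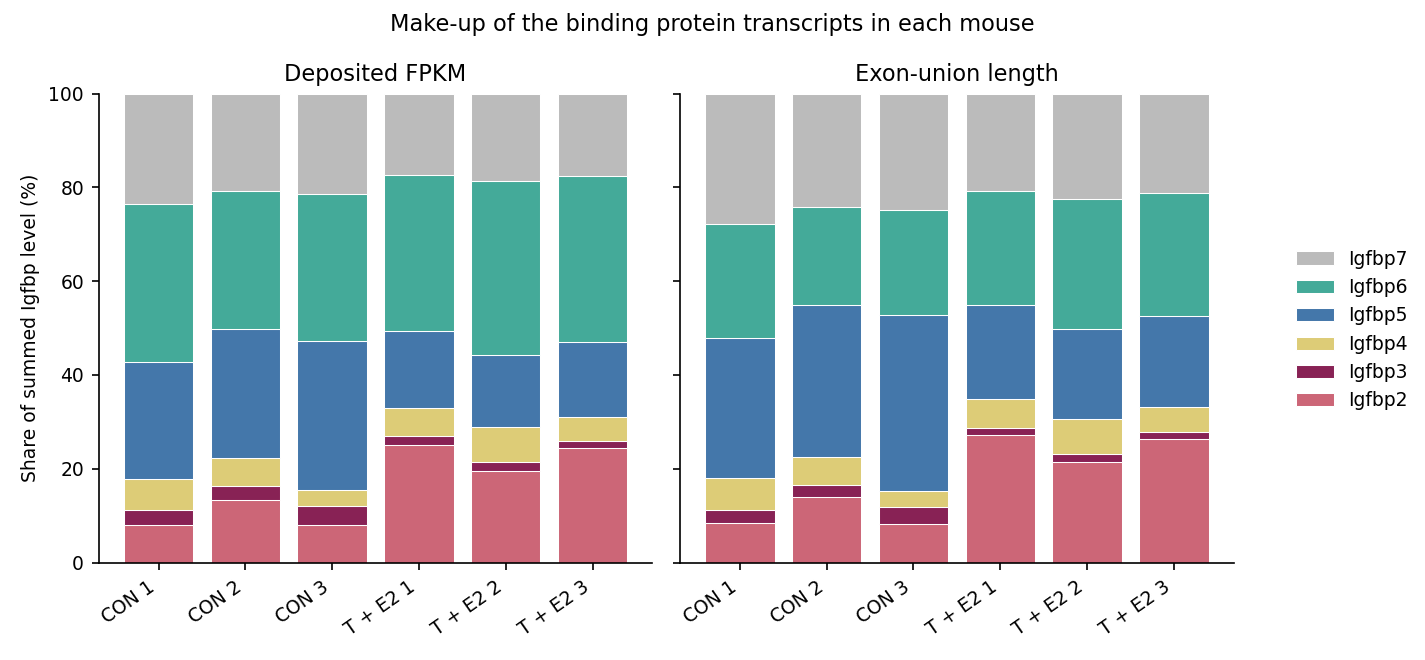
Share of each binding protein in the summed level of the 6 (vertical axis, %; 1 bar per mouse), with the deposited FPKM on the left and the length of the annotated exons on the right. Igfbp2 takes 19.6 to 25.1% of the deposited FPKM in the T + E2 mice against 7.93 to 13.3% in the CON mice, and Igfbp5 15.5 to 16.5% against 24.9 to 31.7%.

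The sequences before the transcription starts are shown for the 2 upregulated DEGs and for the 2 binding proteins with the largest falls, since these 4 genes passed the test under every alternative tried. Each run is the 250 bases before a RefSeq start (build GRCm38.p6), written 5′ to 3′ on the strand of the gene, with the base next to the start as -1. Capitals mark half-sites of steroid receptors, AGAACA for the androgen receptor and GGTCA for the estrogen receptor, searched on both strands.
Igf1 (chr10:87860861-87861110, plus strand): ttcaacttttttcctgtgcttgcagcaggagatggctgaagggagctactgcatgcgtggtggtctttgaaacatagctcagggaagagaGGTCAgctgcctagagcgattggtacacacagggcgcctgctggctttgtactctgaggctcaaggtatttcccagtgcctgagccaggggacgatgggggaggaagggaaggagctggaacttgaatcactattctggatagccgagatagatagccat
Igfbp2 (chr1:72824230-72824479, plus strand): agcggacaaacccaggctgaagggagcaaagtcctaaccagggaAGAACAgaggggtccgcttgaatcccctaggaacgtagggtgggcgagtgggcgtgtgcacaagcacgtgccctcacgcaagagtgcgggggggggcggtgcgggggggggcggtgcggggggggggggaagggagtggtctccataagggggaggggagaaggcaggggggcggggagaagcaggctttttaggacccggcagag
Igfbp3 (chr11:7213924-7214173, minus strand): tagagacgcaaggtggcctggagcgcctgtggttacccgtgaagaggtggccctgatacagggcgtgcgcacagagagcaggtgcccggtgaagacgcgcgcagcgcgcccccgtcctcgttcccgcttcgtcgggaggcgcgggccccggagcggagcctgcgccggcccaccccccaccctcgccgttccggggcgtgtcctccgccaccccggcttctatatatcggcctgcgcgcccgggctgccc
Igfbp5 (chr1:72874866-72875115, minus strand): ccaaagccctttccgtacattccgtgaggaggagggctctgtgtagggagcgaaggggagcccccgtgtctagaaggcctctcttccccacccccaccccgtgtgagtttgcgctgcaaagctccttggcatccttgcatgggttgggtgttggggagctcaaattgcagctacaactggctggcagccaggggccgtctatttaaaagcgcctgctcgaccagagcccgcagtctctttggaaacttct

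The Igf1 window held 1 estrogen half-site (GGTCA at -160 to -156) and 1 CCAAT box on the opposite strand at -142 to -138. This window lies inside the gene as placed above (chr10:87858265-87937042), so the bases before that gene start were not searched. The first of 2 Igfbp2 windows held 1 androgen half-site (AGAACA at -206 to -201) and 3 GC boxes (GGGCGG). The second Igfbp2 window (chr1:72825137-72825386), not printed, held no androgen half-site and 1 estrogen half-site on the opposite strand (TGACC at -31 to -27). Neither Igfbp3 nor Igfbp5 held a match to any of the 8 motifs searched. The 4 windows differed in composition, with 5 CpG pairs and 52.8% G and C in Igf1, 14 and 67.2% in Igfbp2, 32 and 73.2% in Igfbp3 and 10 and 58.8% in Igfbp5, beside medians of 6 CpG and 52.4% over 32851 windows of all genes.

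All 10 genes had RefSeq windows, 14 in total, with 4 for Igf2 and 2 for Igfbp2. None of the 14 held a full androgen response element (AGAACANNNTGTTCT), a full estrogen response element (GGTCANNNTGACC) or a STAT5 site (TTCNNNGAA), motifs found in 0.00913, 0.0639 and 7.02% of all windows. The androgen half-site was found in 16.1%, the estrogen half-site in 35.2%, the CCAAT box (CCAAT) in 33.8%, the GC box in 32.7% and the TATA box (TATAAA) in 12.4% of all windows. Half-sites are part of the full elements and are common, a match is no proof of binding, and the absence of a match says only that the letters are not in these 250 bases.

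Other genes of the pathway were followed in 5 lists with 73 genes, of which 67 could be tested, 11 were higher and 9 lower in the T + E2 group, with a median log2 fold change of 0.02. Among all tested genes, 10.4% were higher and 9.25% lower. The list with the largest share of calls was the growth hormone and insulin axis, with 4 of 7 tested genes higher and 1 lower. Growth hormone induces Igf1 through the kinase JAK2 and the transcription factors STAT5A and STAT5B. Stat5a rose from 335 ± 32.3 to 854 ± 109 CPM and was a DEG (log2 fold change 1.35, standard error 0.13, edgeR adjusted p = 0.000371). Stat5b (log2 fold change 0.94, edgeR adjusted p = 0.000588) and Jak2 (0.89, adjusted p = 0.00149) also rose, as did Socs2, a target of STAT5 that restrains growth hormone signalling (0.66, adjusted p = 0.00792). The growth hormone receptor Ghr had 48 ± 5.2 and 43.5 ± 6.53 CPM in the CON and T + E2 groups and did not pass edgeR's test (log2 fold change -0.14, adjusted p = 0.482). Insrr, a relative of the insulin receptor, was the gene that fell, from 16 to 28 counts to 6 to 8. It passed the filter on low counts only through the CON group, so its call was favoured beforehand. The call was lost under DESeq2 and both limma fits. The insulin genes Ins1 and Ins2 had 0 counts in all mice.

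Of 7 tested extracellular regulators, 2 were higher and 0 lower by edgeR, where 10.4% of all tested genes were higher and 9.25% lower. Likewise, 0 were lower by DESeq2, by limma and at an unadjusted p under 0.05 by edgeR, but 1 was lower without CON replicate 1. Stc2, which encodes stanniocalcin-2, an inhibitor of PAPP-A, rose from 14.4 ± 2.59 to 28.5 ± 4.09 CPM (log2 fold change 0.98, standard error 0.16, edgeR adjusted p = 0.00507). Its relative Stc1 had the opposite sign, with 16.7 ± 6.88 CPM in CON mice and 10.6 ± 1.92 CPM in T + E2 mice. Stc1 did not pass edgeR's test (log2 fold change -0.65, adjusted p = 0.175). Pappa2, the protease that cuts IGFBP-3 and IGFBP-5, rose from 31.7 ± 8.22 to 49.2 ± 3.78 CPM (log2 fold change 0.63, standard error 0.18, edgeR adjusted p = 0.0395). This second call was kept only without CON replicate 2 among the fits that left out a mouse. Pappa, which encodes PAPP-A, had 52 to 65 counts in CON mice and 74 to 130 in T + E2 mice (log2 fold change 0.74, edgeR adjusted p = 0.0661).

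Downstream of the receptors, 1 of 36 tested signalling genes was higher and 7 were lower in the T + E2 group, with a median log2 fold change of -0.04, where 10.4% of all tested genes were higher and 9.25% lower. Mapk3 (ERK1), a kinase at the end of the MAPK cascade that kept its call in all 13 alternatives, fell from 259 ± 13.9 to 169.8 ± 12.9 CPM (log2 fold change -0.61, standard error 0.09, edgeR adjusted p = 0.00354). Falls with a larger adjusted p were found for the adaptors Shc1 (log2 fold change -0.31) and Grb14 (-0.59), the catalytic subunit Pik3cb (-0.64) and the kinase Akt1 (-0.33), with edgeR adjusted p-values of 0.0251 to 0.0492. Irs4, a docking protein of low expression, went from 18 to 30 counts to 4 to 10 (log2 fold change -2.03, edgeR adjusted p = 0.0118). It passed the filter on low counts only through the CON group, so its call, counted among the 7 lower genes, was favoured beforehand. It also kept its call, but its log2 fold change was -1.17 and -0.25 under limma with pseudocounts of 0.1 and 1, which shrink changes of low genes. Pik3r1, the regulatory subunit of PI3K, was the gene that rose (0.33, adjusted p = 0.0446). With any 1 mouse left out, between 2 and 4 genes of this list were lower. When CON replicate 2 was left out, the log2 fold changes of Stat5a (1.27), Stat5b (0.91), Jak2 (0.87), Socs2 (0.66), Stc2 (0.85), Pappa2 (0.85), Mapk3 (-0.61) and Irs4 (-1.87) still passed edgeR's test, and those of Shc1 and Grb14 did not.

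FoxO transcription factors are held out of the nucleus by AKT, and their targets are often read beside IGF signals. Of 15 tested FoxO factors and target genes, 4 were higher (Sesn1, Cited2, Bnip3 and Gadd45a, log2 fold changes of 0.51, 0.58, 0.50 and 0.41, edgeR adjusted p of 0.0215, 0.0223, 0.0278 and 0.0464) and Sesn3 was lower (-0.52, adjusted p = 0.0481), where 10.4% of all tested genes were higher and 9.25% lower. The call of Gadd45a was lost in 11 of 13 alternatives, among them DESeq2 (adjusted p = 0.0648), total-count scaling (edgeR adjusted p = 0.0522) and no filter (edgeR adjusted p = 0.0567). The median log2 fold change of the list was -0.01, and without CON replicate 2 or CON replicate 3 the number of higher genes was 0, without T + E2 replicate 1 it was 2 and without T + E2 replicate 2 it was 1. In the list of the Igf2 locus and the Igf2 mRNA-binding proteins, 0 of 2 tested genes passed by edgeR, DESeq2 or limma, and 1 (H19) had an unadjusted p under 0.05 by edgeR.

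**Figure D4:**
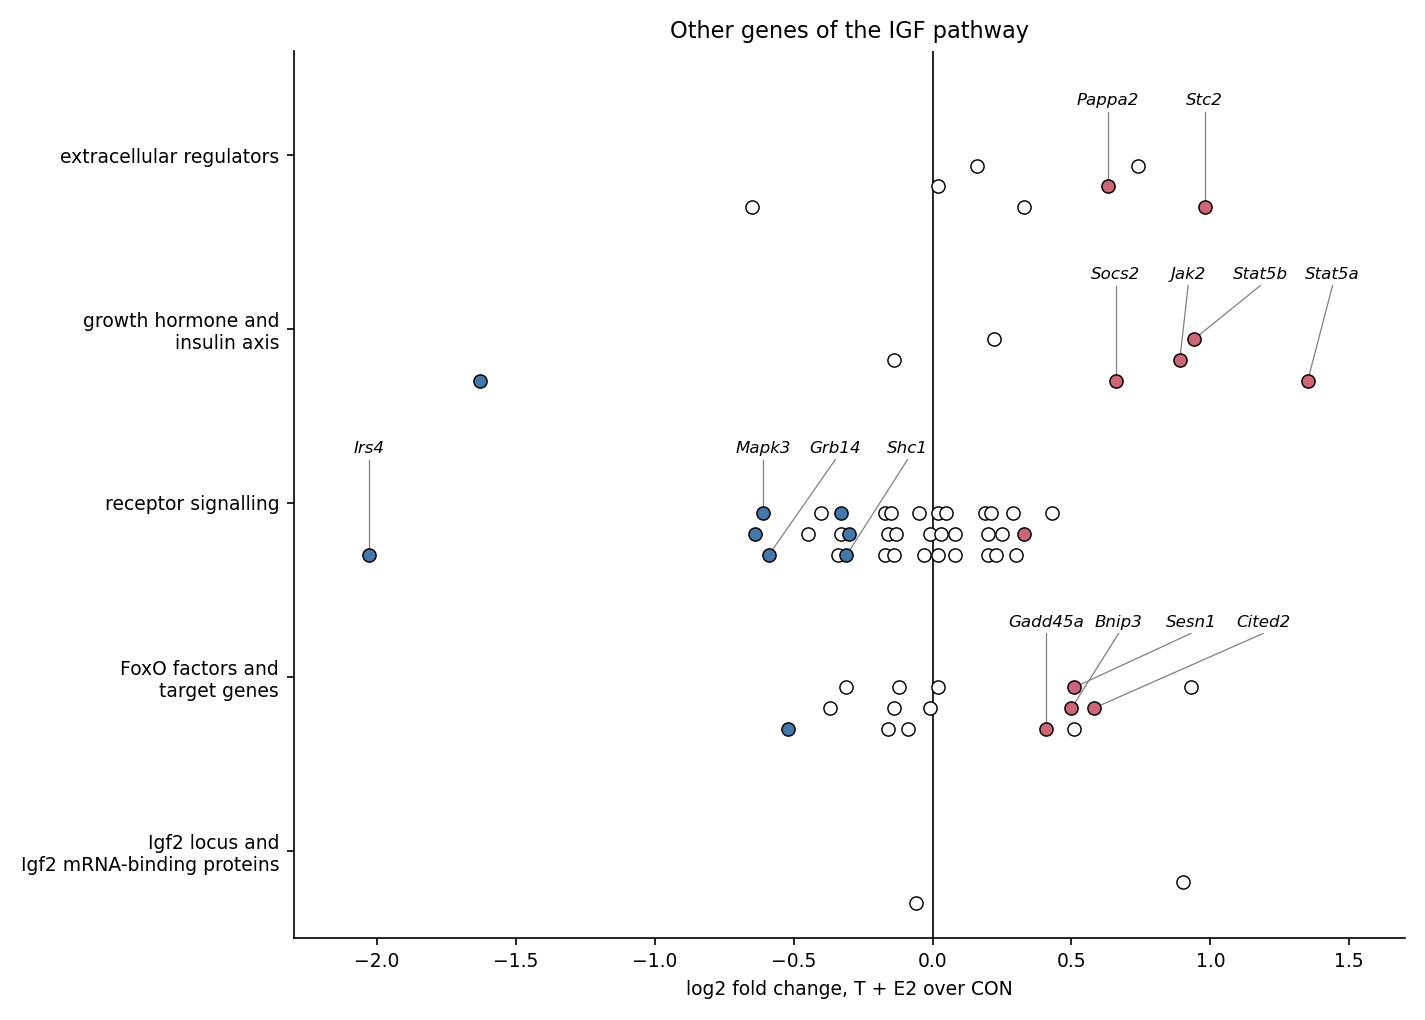
Log2 fold change of the T + E2 group over the CON group (horizontal axis) for the 67 tested genes of 5 lists around the IGF system, with red points for genes that were higher, blue points for genes that were lower at an adjusted p under 0.05 and open points for the others. Stat5a (1.35) lies farthest to the right and Irs4 (-2.03) farthest to the left.

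The Reactome set for IGF transport and uptake by IGFBPs was also read gene by gene, without a test of the set. Of its 31 genes in the table, 15 were tested, 7 of them among the 10 IGF genes, and 6 were higher and 4 lower, where 10.4 and 9.25% of all tested genes were. By the DEG rule, which 4.27% of all tested genes passed upward and 3.38% downward, the 5 upregulated DEGs of the set were Igf1, Igfbp2 and 3 kallikreins (Klk1b21, Klk1b24 and Klk1b27), and the 2 downregulated DEGs were Igfbp3 and F2, the gene for prothrombin, at 14 to 25 counts in CON mice and 3 to 6 in T + E2 mice. Kallikreins are secreted proteases of a family whose near-identical members can share reads, so single members are uncertain. Klk1b24 went from 11 to 14 counts in the CON mice to 380 to 540 in the T + E2 mice, and Klk1b21 and Klk1b27 from 0 to 2 to 23 to 47. Klk1b21 and Klk1b27 passed the filter on low counts only through the T + E2 group, and F2 only through the CON group. A call of these genes was thus favoured beforehand, and only 3 of the 14 kallikreins of the set were tested. The counts of this set are therefore not read against the shares over all tested genes. Mmp2, a matrix protease, was lower (log2 fold change -0.68, standard error 0.1, edgeR adjusted p = 0.00264).

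Epha7, a receptor for ephrins that the study examined beside Igf1, had 40, 39 and 54 counts in CON mice and 300, 283 and 201 in T + E2 mice. It rose from 2.87 ± 0.458 to 17.1 ± 3.67 CPM (log2 fold change 2.57, standard error 0.21, edgeR adjusted p = 0.000187), and T + E2 replicate 2, the highest mouse for Igf1, was in the middle of its group for Epha7. Epha7 also passed without CON replicate 2 (edgeR adjusted p = 0.000847), and under limma on log2(FPKM + 1) its log2 fold change was 0.94.

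In bulk tissue, fewer cells of a type and less RNA per cell cannot be told apart. Single markers of several cell types passed the test, where 10.4% of all tested genes were higher and 9.25% lower. No change in cell number is read from these calls. Of 5 smooth muscle markers, Acta2 and Des were lower and the others did not pass the test. Their summed level was 3979 to 4901 CPM in CON mice and 3475 to 3801 CPM in T + E2 mice. The sums were apart in the same direction as Igfbp3, Igfbp5 and Igfbp7. Myh11, the highest of the 5, and Cnn1 overlapped between the groups, so the sum does not speak for each marker. Of 5 macrophage markers, Mrc1 and C1qa were higher, and Adgre1, Csf1r and Cd68 did not pass the test and overlapped between the groups. The sum was 124 to 175 against 186 to 282 CPM, apart in the direction of Igf1. Mrc1 alone was at 31 to 47.3 against 63.5 to 114 CPM. The macrophage sum was highest in T + E2 replicate 2, as Igf1 was, but so were the fibroblast, endothelial, basal, and B and plasma cell sums. Of 7 fibroblast markers, 1 (Pdgfrb) was lower, and the sums of 1627 to 1755 and 1688 to 2042 CPM overlapped, as did those of 4 endothelial markers (72 to 102 and 90.8 to 115 CPM), which did not pass edgeR's test. The 7 luminal markers (3664 to 3953 and 3852 to 4001 CPM), of which Epcam and Cdh1 were higher and Krt18 lower, and the 4 basal markers (155 to 257 and 245 to 313 CPM), of which Trp63 was higher, also overlapped. The 3 B and plasma cell markers summed to 22.5 to 99 and 72.2 to 149.6 CPM, and did not pass edgeR's test, nor did the tested markers of adipocytes, seminal vesicle or skeletal muscle. No marker was at 0 in all mice, and the part of these cells in the values of the IGF genes was not tested.

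**Figure D5:**
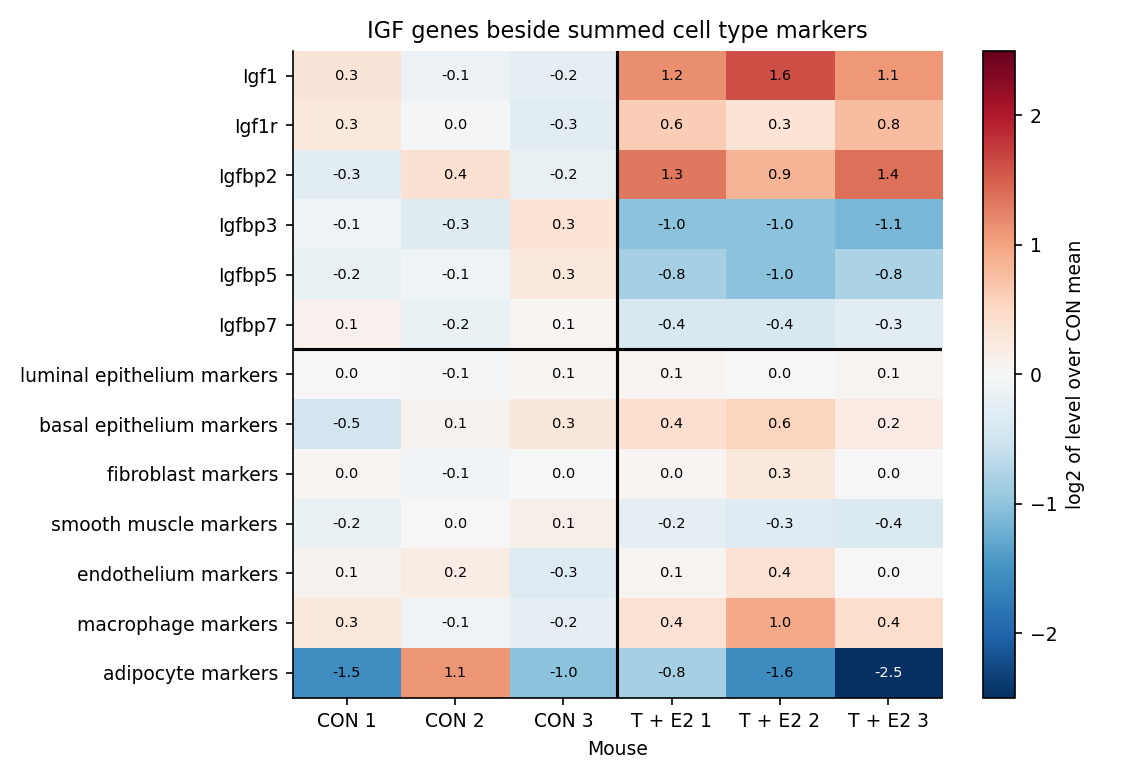
Level of the 6 IGF genes that passed the test and summed level of 7 marker lists in each mouse (columns), as the log2 of the level over the CON mean (colour and printed value). Igf1 and the macrophage markers are both highest in T + E2 replicate 2 (1.6 and 0.96), as are the basal (0.56), fibroblast (0.27) and endothelial (0.36) markers. The smooth muscle markers lie below the CON mean in all 3 T + E2 mice (-0.23 to -0.35).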

How the data were processed

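RNA of 6 mouse prostates was read by paired-end sequencing of TruSeq libraries. The authors deposited 1 table with whole-number counts per gene without normalization and the FPKM computed from them, and the submitters' notes name TopHat, Bowtie2 and HTSeq. The genome build, the annotation and the strand setting are not given in the sources used here. Coordinates were compared with GENCODE M21 (GRCm38), in which 34267 identifiers occur and 27686 (80.8%) of them have the same start and end.

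Tests on the deposited counts used edgeR 4.0.16 in R 4.3.3 (filterByExpr with minimum count 10 and minimum total count 15, TMM, glmQLFit and glmQLFTest, two-sided, group as the only term). The standard error was the absolute log2 fold change over the square root of F. Alternatives were median-of-ratios and total-count scaling, no filter, a replicate block, each mouse left out, DESeq2 1.42.0, and limma 3.58.1 on log2 FPKM with pseudocounts of 0.1 and 1 (genes that reached an FPKM of 0.1 in 3 mice). An exact permutation test of 3 against 3 mice cannot go below p = 0.1. The script was tested on simulated data. Replicates are separate mice, and their counts differed by more than sampling noise (chi-square per degree of freedom 17.8 to 39). Detection limits cover counting error only.

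The 10 genes and all lists were chosen with earlier results of these data known. Named genes were the 10 genes, up to 4 genes per pathway list with the smallest adjusted p under 0.05, and Epha7. Pik3r1, Pik3cb, Akt1, Sesn3, Insrr, Insr, Ghr, Pappa, Stc1, H19, Airn, Igfbp1, Ins1, Ins2 and the Reactome genes were named after their values were seen. Some genes counted in the lists are not reported here by name. The Reactome set came from a mouse set file installed with R. Figures were drawn with matplotlib 3.10.9.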

Additional observations from a re-analysis of the deposited data

How the results depend on the processing

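Igf1, Igfbp2, Igfbp3 and Igfbp5 kept their direction and an adjusted p under 0.05 in all 13 alternatives, with log2 fold changes of 1.08 to 1.48, 1.08 to 1.44, -1.20 to -0.86 and -0.97 to -0.74. Igf1r missed the threshold with total-count scaling (0.55), the replicate block (0.59) and limma (0.55 with a pseudocount of 0.1, 0.50 with 1), and ranged from 0.46 to 0.74 with a mouse left out (adjusted p of 0.00767 to 0.112 over all alternatives). Igfbp7 missed it without the filter (-0.36) and with the replicate block (-0.36), and ranged from -0.44 to -0.31 with a mouse left out (adjusted p of 0.0156 to 0.129 over all alternatives). Igfbp4 ranged from -0.09 to 0.33 and was called in no alternative. The number of downregulated DEGs among the 10 genes was 0 under limma on log2(FPKM + 1), where Igfbp3 stood at -0.96 and all genes gave 365 upregulated and 196 downregulated DEGs, and was 0 to 1 with a mouse left out.

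The pathway counts moved more. Higher extracellular regulators numbered 1 under total-count scaling, the replicate block and both limma fits and 1 to 2 with a mouse left out, and lower ones 0 to 1. Lower genes of the growth hormone and insulin axis numbered 0 under DESeq2 and both limma fits and 0 to 1 with a mouse left out, and its 4 higher genes numbered 4 throughout. Higher signalling genes numbered 0 under total-count scaling, no filter, the replicate block and both limma fits, 2 under DESeq2, and 0 to 2 with a mouse left out. Lower signalling genes numbered 4 without the filter, 3 with the replicate block and 2 to 4 with a mouse left out. Higher FoxO genes numbered 2 with the replicate block and 0 to 4 with a mouse left out, and lower ones 0 with the replicate block and both limma fits and 0 to 1 with a mouse left out. The causes were not tested. Rescaled to 1 sum per mouse, the binding protein sum of the T + E2 group was 0.819 of that of the CON group, and 0.933 as deposited.

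Replicate numbers name different mice: correlations of same-numbered deviations were -0.0516, 0.0275 and 0.0463, and not every mouse correlated best with its own number. The replicate block moved the higher and lower genes from 1620 and 1441 to 1229 and 945. Without T + E2 replicate 2 they numbered 1107 and 871, and without CON replicate 3 they numbered 1095 and 834. With 3 mice per group, small changes may be missed, and bulk tissue does not show which cells express a gene.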
